A study of Mus musculus with 5 samples.

Results

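The pro-survival members of the BCL2 family measured here are Mcl1, Bcl2, Bcl2l1 (which encodes BCL-XL) and Bcl2l2 (which encodes BCL-W). On the mouse array they were read by 19 probe sets that the platform annotation assigns to only 1 of these 4 genes, out of 45037 probe sets other than controls and 18193 genes with a probe set of their own. Mcl1 had 6 of them, Bcl2 had 5, and Bcl2l1 and Bcl2l2 had 4 each. Another 3 probe sets are annotated to several Bcl2a1 paralogs at once and are given apart, since no level of a single paralog can be read from them. Probe sets were taken by gene symbol and not by their values, but the genes were chosen with earlier results of these data known.

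Plasma cells (PCs) kept in culture for 3 days (cultured, 3 arrays) were compared with PCs taken directly after isolation (ex vivo, 2 arrays). All PCs came from the bone marrow of wild-type C57BL/6J mice that had been primed and boosted with NP-CCG, a hapten-protein antigen, in incomplete Freund's adjuvant, and were enriched magnetically for CD138 after removal of cells carrying B220 or CD49b. In culture they lay on ST2 cells, a fibroblast-like mouse bone marrow stromal line, with the cytokine APRIL at physiological oxygen, and afterwards they were sorted by flow cytometry, whereas ex vivo PCs were not, so that effects of culture and of sorting cannot be told apart. Experiment 1 gave 1 cultured and 1 ex vivo array, and experiment 2 gave 2 cultured arrays, called a and b, and 1 ex vivo array. Neither the age of the mice nor how many were pooled is given in the sources used here, and nothing says that arrays a and b came from separate cultures, so the p-values measure the spread between these arrays, part of which may be technical.

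Pro-survival BCL2 proteins sit on the outer mitochondrial membrane and hold the effectors BAX and BAK in check. BH3-only proteins are induced or activated by stress and bind the pro-survival proteins, which frees the effectors to open the membrane and release cytochrome c. MCL1 is a short-lived protein whose amount follows its synthesis and its removal by the proteasome, and long-lived PCs are known to need it downstream of the receptor BCMA, which binds APRIL. BCL2 and BCL-XL are more stable proteins that act at the same step, as does BCL-W, and A1, the product of Bcl2a1, is a short-lived relative induced by NF-κB.

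The deposited values are RMA intensities. They are given here as log2 levels, so that a difference of 1 is a factor of 2. A level depends on the probes of its probe set, so levels are compared between arrays and not between probe sets or genes. Probe sets were tested with limma where they reached an intensity of 50 in at least 2 of the 5 arrays, and a probe set was called at a Benjamini-Hochberg adjusted p under 0.05 over all 30477 tested. All 19 single-gene probe sets passed this filter, as did 1 of the 3 Bcl2a1 probe sets. A bulk array cannot tell fewer cells of a type apart from less RNA per cell.

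The RefSeq windows of GRCm38.p6 that run from 250 bases before to 50 after a gene's start were searched on both strands for motifs of pathways that the culture could touch. Windows were found for 7 genes (9 windows, 3 of them of Bcl2l1). The 3 Bcl2a1 windows are shown because they make plain how alike these paralogs are and why a shared probe set cannot separate them. The capitals mark the AP-1 motif TGANTCA, the site of FOS and JUN dimers.

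Bcl2a1a, chr9:88956760-88956849, plus strand: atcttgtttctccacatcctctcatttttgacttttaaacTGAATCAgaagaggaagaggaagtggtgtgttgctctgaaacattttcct
Bcl2a1b, chr9:89199069-89199158, plus strand: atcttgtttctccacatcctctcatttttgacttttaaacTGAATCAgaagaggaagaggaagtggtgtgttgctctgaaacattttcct
Bcl2a1d, chr9:88731915-88732004, minus strand: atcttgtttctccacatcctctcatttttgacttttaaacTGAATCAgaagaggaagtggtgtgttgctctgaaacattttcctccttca

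Bcl2a1a and Bcl2a1b shared an identical run of 174 bases in their windows, and each shared a run of 84 bases with Bcl2a1d. TGANTCA occurs in 7.81% of the 32851 windows in the same table. The stretches of Bcl2l1 and Bcl2 below are shown because each holds a match. In Bcl2l1 it is the κB consensus of NF-κB, a pathway that the study describes for PC survival. In Bcl2 it is TGACG, the core site bound by CREB.

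Bcl2l1, chr2:152830878-152830967, minus strand: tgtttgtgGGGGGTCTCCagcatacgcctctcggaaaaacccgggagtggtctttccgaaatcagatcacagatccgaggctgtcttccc
Bcl2, chr1:106714348-106714437, minus strand: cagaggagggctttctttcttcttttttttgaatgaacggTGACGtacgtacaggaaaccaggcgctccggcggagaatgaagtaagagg

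The κB consensus occurs in 8.46% of all windows and TGACG in 20.8%. The κB match in Bcl2l1 lies in 1 of its 3 windows, and no window of the other genes searched, those of Bcl2a1 included, held a κB match. TGACG was also matched in the Mcl1 window, after the start, and in each of the 3 Bcl2a1 windows, and the Bcl2l2 window held no match to any motif searched. No window of these 7 genes held ACGTG, the core of the hypoxia response element (19.6% of all windows), GTAAACA, a FoxO site (3.65%), or the serum response element (1.63%). A match is a run of letters and not evidence of binding.

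None of the 20 tested probe sets was called for culture. Over all probe sets the share called was 0.0459%, 14 of 30477 (0.0164% higher and 0.0295% lower), so a count of 0 is close to this background. Adjusted p-values of the 19 single-gene probe sets lay between 0.86 and 1.0, and none had an unadjusted p under 0.05, as against 6.59% of all tested. The cultured minus ex vivo difference was above 0 for 9 and below 0 for 10 of them, with a median of -0.02, equal to the median over all probe sets. Its absolute size had a median of 0.11, against 0.17 over all probe sets. The range was -0.62 to 0.50.

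The groups overlapped for all single-gene probe sets except 1451029_at of Bcl2l2, whereas 9.42% of all tested probe sets were wholly higher in cultured PCs and 10.6% wholly lower. When the experiment entered the limma model as a block, again none of the 20 was called, against 1.8% of all probe sets (550 of 30477). There 3 of 20 had an unadjusted p under 0.05, against 18.5% of all, and these were 1416881_at of Mcl1, 1426050_at of Bcl2l1 and 1419004_s_at of Bcl2a1. Data were also simulated, with 1 draw per size of change, from the block model itself, with its fitted experiment effects and moderated variances. They favour the block by construction. On them the model with culture alone recovered 0% of changes of 1 on the log2 scale and 66% of changes of 2. The absence of calls without the block therefore says little about changes of a factor of 2. The model with the block recovered 95.5% and 100%. No call was false with culture alone (0 of 132 for changes of 2). With the block 20 of 211 and 23 of 223 were false, a larger share than the nominal rate. Recovery and false call rates on the real arrays cannot be read from 1 draw per size.

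**Figure D1:**
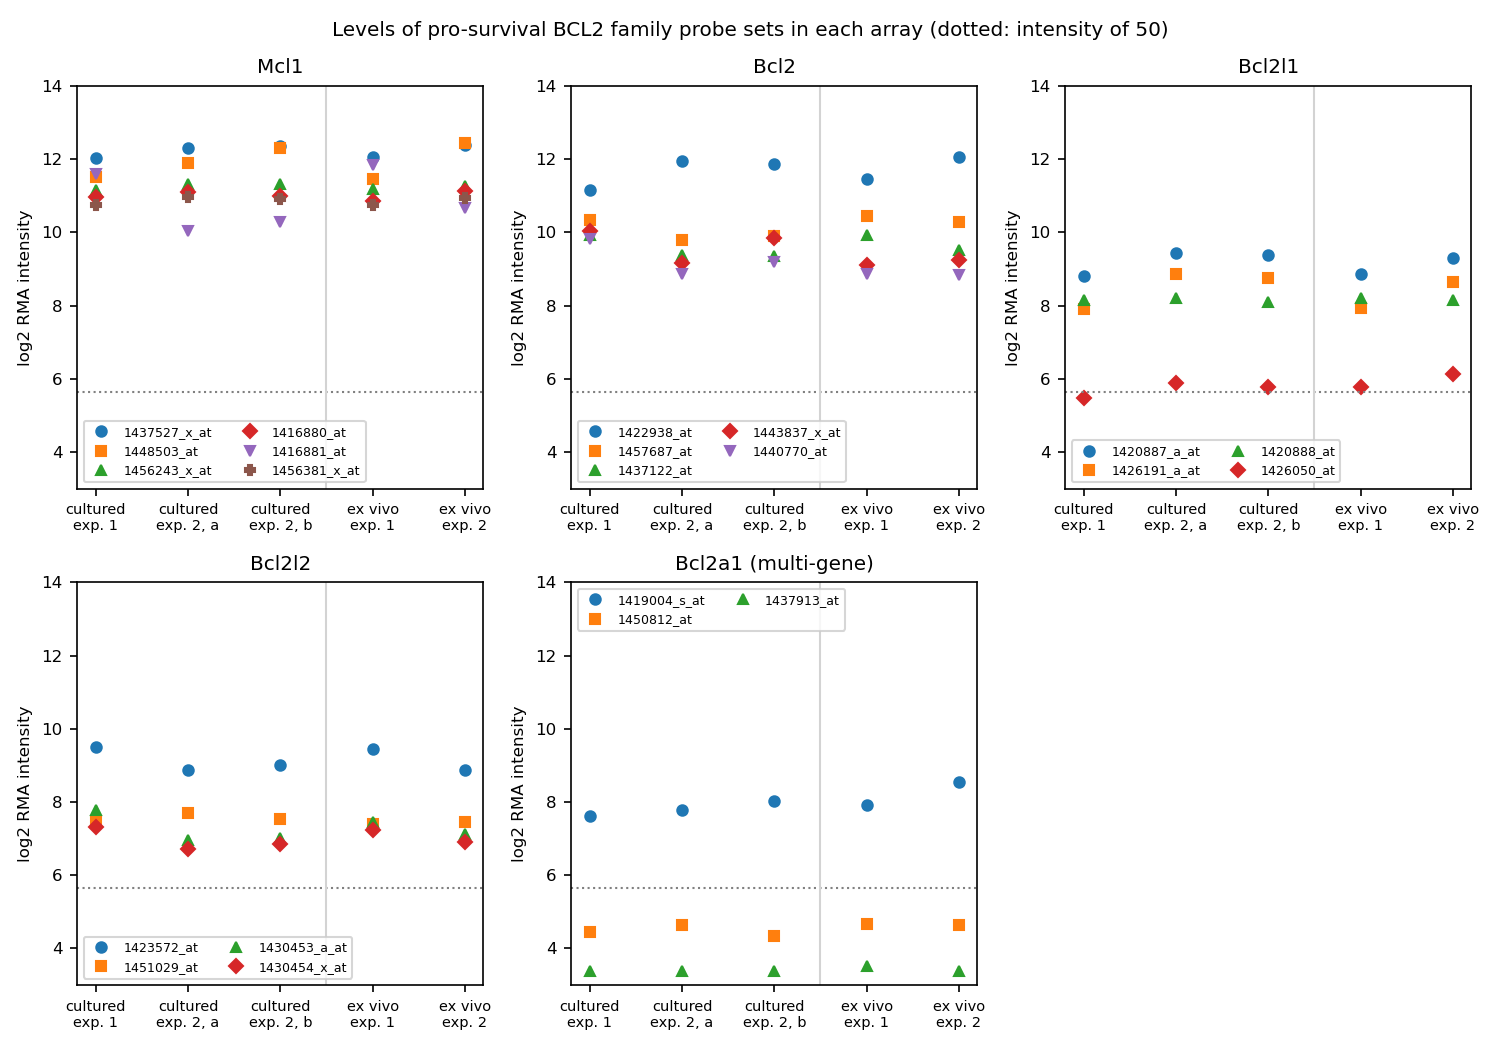
Level of each probe set in each array, by gene. The y axis is the log2 RMA intensity, the x axis gives the 3 cultured arrays left of the 2 ex vivo arrays, each symbol is 1 probe set, and the dotted line is an intensity of 50. Within Mcl1 the probe sets 1416881_at and 1448503_at run opposite ways between experiments 1 and 2, whereas 2 of the 3 Bcl2a1 probe sets lie under the dotted line in all arrays.

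Mcl1 had the same mean level in cultured and ex vivo PCs by its brightest probe set, 1437527_x_at, whose suffix says that some probes may match other transcripts too. Its log2 level was 12.02 in experiment 1 and 12.30 and 12.37 in experiment 2 in cultured PCs, against 12.07 and 12.38 in ex vivo PCs of experiments 1 and 2. Both groups thus covered nearly the same range, with means of 12.23 ± 0.18 (SD, n = 3) in cultured PCs and 12.23 ± 0.22 (SD, n = 2) in ex vivo PCs. The difference was 0.00 (standard error 0.18, adjusted p = 0.998), and its 95% confidence interval of -0.46 to 0.46 corresponds to 0.728-fold to 1.38-fold. With the experiment as a block the difference was -0.05 (standard error 0.10, adjusted p = 0.847), and the interval narrowed to 0.807-fold to 1.16-fold.

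Of the other 5 Mcl1 probe sets, 3 were as flat. The level by 1456243_x_at was 11.17, 11.33 and 11.32 in cultured PCs, against 11.19 and 11.28 in ex vivo PCs. By 1416880_at it was 10.97, 11.11 and 11.00 in cultured PCs, against 10.85 and 11.14 in ex vivo PCs. By 1456381_x_at it was 10.75, 10.98 and 10.90 in cultured PCs, against 10.76 and 10.94 in ex vivo PCs. The culture differences of these 3 were 0.04, 0.03 and 0.03 in that order, and none of their within-experiment differences passed 0.15 in size.

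The remaining pair disagreed with each other. The level by 1416881_at was 11.59 in experiment 1 and 10.05 and 10.29 in experiment 2 in cultured PCs, against 11.84 and 10.67 in ex vivo PCs. The level by 1448503_at was 11.51 in experiment 1 and 11.89 and 12.31 in experiment 2 in cultured PCs, against 11.47 and 12.45 in ex vivo PCs. The experiment 1 arrays were therefore the high ones on 1416881_at and the low ones on 1448503_at, in both groups. The log2 ratio of the first to the second was 0.07 in experiment 1 and -1.84 and -2.02 in experiment 2 in cultured PCs, against 0.38 and -1.78 in ex vivo PCs.

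Among the Mcl1 probe sets, 1416881_at had the largest fitted culture difference. Its within-experiment difference was -0.26 in experiment 1 and -0.63 and -0.39 for arrays a and b of experiment 2. The fitted difference was -0.62 (standard error 0.59, adjusted p = 0.909), and with the experiment as a block it was -0.40 (standard error 0.13, unadjusted p = 0.0254, adjusted p = 0.204). The call was thus not reached in either model. For 1448503_at the differences were 0.05, -0.56 and -0.14, and arrays a and b differed from each other by 0.42.

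Bcl2 was read at its highest level by 1422938_at. This level was 11.17 in experiment 1 and 11.94 and 11.86 in experiment 2 in cultured PCs, against 11.46 and 12.06 in ex vivo PCs. Cultured PCs were the lower ones within each experiment, with differences of -0.29, -0.13 and -0.20, but the experiments differed more, and the groups overlapped. The mean was 11.66 ± 0.42 (SD, n = 3) in cultured PCs and 11.76 ± 0.43 (SD, n = 2) in ex vivo PCs. The fitted difference was -0.10 (standard error 0.32, adjusted p = 0.961), with an interval of 0.53-fold to 1.63-fold. The model with the block gave -0.22 (standard error 0.11, adjusted p = 0.362), with an interval of 0.714-fold to 1.04-fold.

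The other 4 Bcl2 probe sets did not share a direction. The level by 1457687_at was 10.35, 9.80 and 9.90 in cultured PCs, against 10.44 and 10.27 in ex vivo PCs. By 1437122_at it was 9.93, 9.38 and 9.35 in cultured PCs, against 9.93 and 9.51 in ex vivo PCs. Their culture differences were -0.33 and -0.16, and both had their lowest values in the cultured arrays of experiment 2.

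The last 2 had their highest value in the cultured array of experiment 1. The level by 1443837_x_at was 10.04, 9.16 and 9.84 in cultured PCs, against 9.12 and 9.25 in ex vivo PCs. The level by 1440770_at was 9.83, 8.85 and 9.19 in cultured PCs, against 8.86 and 8.83 in ex vivo PCs. Within experiment 1 these were differences of 0.92 and 0.97, the largest of any member in size. In experiment 2 the differences were -0.09 and 0.59 for 1443837_x_at and 0.03 and 0.37 for 1440770_at. With the experiment as a block, 1440770_at differed by 0.53 (standard error 0.21, adjusted p = 0.272) and 1443837_x_at by 0.54 (standard error 0.26, adjusted p = 0.336). Arrays a and b lay 0.68 apart on 1443837_x_at, more than on any other member.

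Bcl2l1 gave a level of 8.81 in experiment 1 and 9.43 and 9.38 in experiment 2 in cultured PCs, against 8.85 and 9.31 in ex vivo PCs, by its brightest probe set 1420887_a_at, whose suffix marks probes that match alternative transcripts of 1 gene. The low arrays were those of experiment 1 in both groups. The mean was 9.21 ± 0.35 (SD, n = 3) in cultured PCs and 9.08 ± 0.33 (SD, n = 2) in ex vivo PCs. The fitted difference was 0.13 (standard error 0.26, adjusted p = 0.947), with an interval of 0.687-fold to 1.75-fold. The block gave 0.04 (standard error 0.11, adjusted p = 0.873), with an interval of 0.855-fold to 1.24-fold.

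The level by 1426191_a_at was 7.91, 8.86 and 8.76 in cultured PCs, against 7.92 and 8.64 in ex vivo PCs, with the same split between the experiments. The level by 1420888_at was 8.14, 8.20 and 8.11 in cultured PCs, against 8.20 and 8.14 in ex vivo PCs. This was the steadiest of the 19, with a span of 0.09 over the 5 arrays, and it showed no split. The dimmest, 1426050_at, gave 5.48, 5.87 and 5.77 in cultured PCs, against 5.78 and 6.13 in ex vivo PCs, close to the filter's intensity of 50. Its differences were -0.30, -0.26 and -0.36, and with the experiment as a block it differed by -0.30 (standard error 0.11, unadjusted p = 0.0313, adjusted p = 0.223).

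Bcl2l2 gave a level of 9.51 in experiment 1 and 8.88 and 9.01 in experiment 2 in cultured PCs, against 9.44 and 8.88 in ex vivo PCs, by 1423572_at. Here the experiment 1 arrays were the high ones. The mean was 9.13 ± 0.33 (SD, n = 3) in cultured PCs and 9.16 ± 0.39 (SD, n = 2) in ex vivo PCs. The fitted difference was -0.03 (standard error 0.27, adjusted p = 0.986), with an interval of 0.603-fold to 1.59-fold. In the model with the block it was 0.06 (standard error 0.11, adjusted p = 0.798), with an interval of 0.867-fold to 1.26-fold.

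The level by 1430453_a_at was 7.77, 6.95 and 7.02 in cultured PCs, against 7.46 and 7.13 in ex vivo PCs. By 1430454_x_at it was 7.33, 6.72 and 6.85 in cultured PCs, against 7.23 and 6.92 in ex vivo PCs. Both followed 1423572_at in that experiment 1 was high, and each had a culture difference above 0 in experiment 1 and below 0 in experiment 2. The level by 1451029_at was 7.48, 7.69 and 7.53 in cultured PCs, against 7.41 and 7.46 in ex vivo PCs. All 3 cultured arrays were above both ex vivo arrays here, the 1 member for which this held. The difference was small, 0.13 (standard error 0.14, adjusted p = 0.909).

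Of the 3 Bcl2a1 probe sets, 1419004_s_at, annotated to Bcl2a1a, Bcl2a1b and Bcl2a1d, was measured above the filter. Its level was 7.61 in experiment 1 and 7.77 and 8.02 in experiment 2 in cultured PCs, against 7.92 and 8.54 in ex vivo PCs. Cultured PCs were lower within each experiment, with differences of -0.32, -0.77 and -0.52, although the groups overlapped, since array b of experiment 2 lay above the ex vivo array of experiment 1. The mean was 7.80 ± 0.21 (SD, n = 3) in cultured PCs and 8.23 ± 0.44 (SD, n = 2) in ex vivo PCs. The fitted difference was -0.43 (standard error 0.24, adjusted p = 0.85), and with the experiment as a block it was -0.50 (standard error 0.14, unadjusted p = 0.013, adjusted p = 0.152), so it was not called in either model. A lower value in every pair within an experiment was seen for 24.9% of all tested probe sets. The other Bcl2a1 probe sets gave 4.46, 4.63 and 4.35 in cultured PCs, against 4.67 and 4.63 in ex vivo PCs (1450812_at), and 3.38 in all 3 cultured arrays, against 3.51 and 3.38 in ex vivo PCs (1437913_at). These lie under the filter and were not tested.

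**Figure D2:**
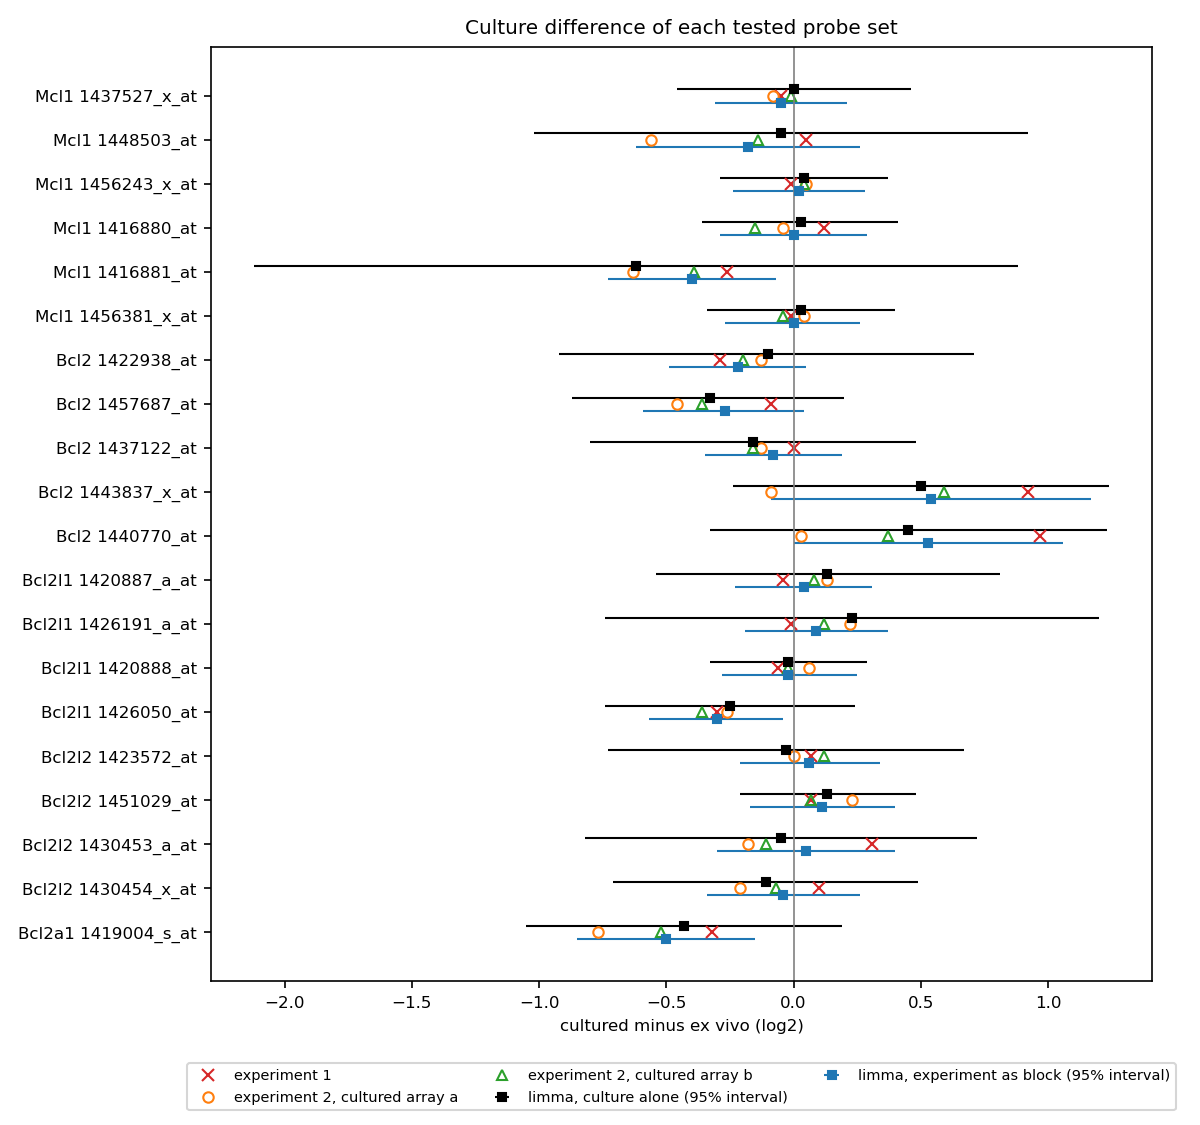
Cultured minus ex vivo difference on the log2 scale (x axis) of the 20 tested probe sets (rows). Crosses, circles and triangles are the pairs within experiment 1 and with arrays a and b of experiment 2, and squares with bars are limma's estimates with 95% confidence intervals, for culture alone in black and with the experiment as a block in blue. The black intervals all include 0, and the blue ones of 1416881_at, 1426050_at and 1419004_s_at lie below it without passing the adjustment over 30477 probe sets.

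Taking all pairs within an experiment, 2 of the 19 single-gene probe sets were higher in cultured PCs each time (1440770_at of Bcl2 and 1451029_at of Bcl2l2) and 5 were lower each time, against 23.1% and 24.9% of all tested probe sets. The interaction of culture and experiment called none of the 20, with none called among all 30477 either (0 at an adjusted p under 0.05 and 2008, or 6.59%, at an unadjusted p under 0.05). This test had 1 residual degree of freedom.

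Differences of the members were larger between the experiments. With culture as a covariate, 9 of the 20 tested probe sets passed limma's test for experiment 2 minus experiment 1, of which 4 were higher and 5 lower, against 26.8% of all probe sets (13.0% higher and 13.8% lower). At an unadjusted p under 0.05 there were 13 of 20, against 41.0% of all. The median absolute difference between the experiments was 0.44 for the 19 single-gene probe sets and 0.27 for all. The 3 arrays of experiment 2 lay wholly above or below the 2 of experiment 1 for 14 of the 19 (8 above and 6 below), against 49.3% of all tested probe sets (24.1% above and 25.2% below).

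For Mcl1 and Bcl2, called probe sets of the same gene had opposite directions. For Mcl1, 1416881_at was lower in experiment 2, with a difference of -1.31 (standard error 0.13, adjusted p = 0.00417) and 1448503_at was higher by 0.76 (standard error 0.18, adjusted p = 0.0299), whereas the other 4 differed by 0.13 to 0.31 without a call. These 2 and 1416880_at were designed on the same Mcl1 transcript record. For Bcl2, 1422938_at was higher by 0.68 (standard error 0.11, adjusted p = 0.011) and 1437122_at was lower, with a difference of -0.50 (standard error 0.11, adjusted p = 0.0237).

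Both calls for Bcl2l1 were higher in experiment 2, by 0.82 for 1426191_a_at (standard error 0.11, adjusted p = 0.00753) and by 0.54 for 1420887_a_at (adjusted p = 0.0199), against -0.02 for 1420888_at. The 3 calls for Bcl2l2 were lower in experiment 2, with differences of -0.56 for 1423572_at (adjusted p = 0.0178), -0.60 for 1430453_a_at (adjusted p = 0.0315) and -0.44 for 1430454_x_at (adjusted p = 0.0458). The fourth, 1451029_at, differed by 0.10 and was not called.

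These calls rest on few arrays. The count of 9, like the 8170 over all tested probe sets, was 0 when the cultured array of experiment 1 was left out, and also when 1 of the ex vivo arrays was. It was 8 of 6916 without array a, 1 of the 8 being the Bcl2a1 probe set, and 3 of 4090 without array b. The 5 arrays covered at least 1 log2 unit for 2 of the 19, 1416881_at of Mcl1 (1.80) and 1440770_at of Bcl2 (1.00), against 21.1% of all tested probe sets. None of the brightest probe sets did, at 0.36 for Mcl1, 0.89 for Bcl2, 0.62 for Bcl2l1 and 0.63 for Bcl2l2, so no genes of like pattern were sought.

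**Figure D3:**
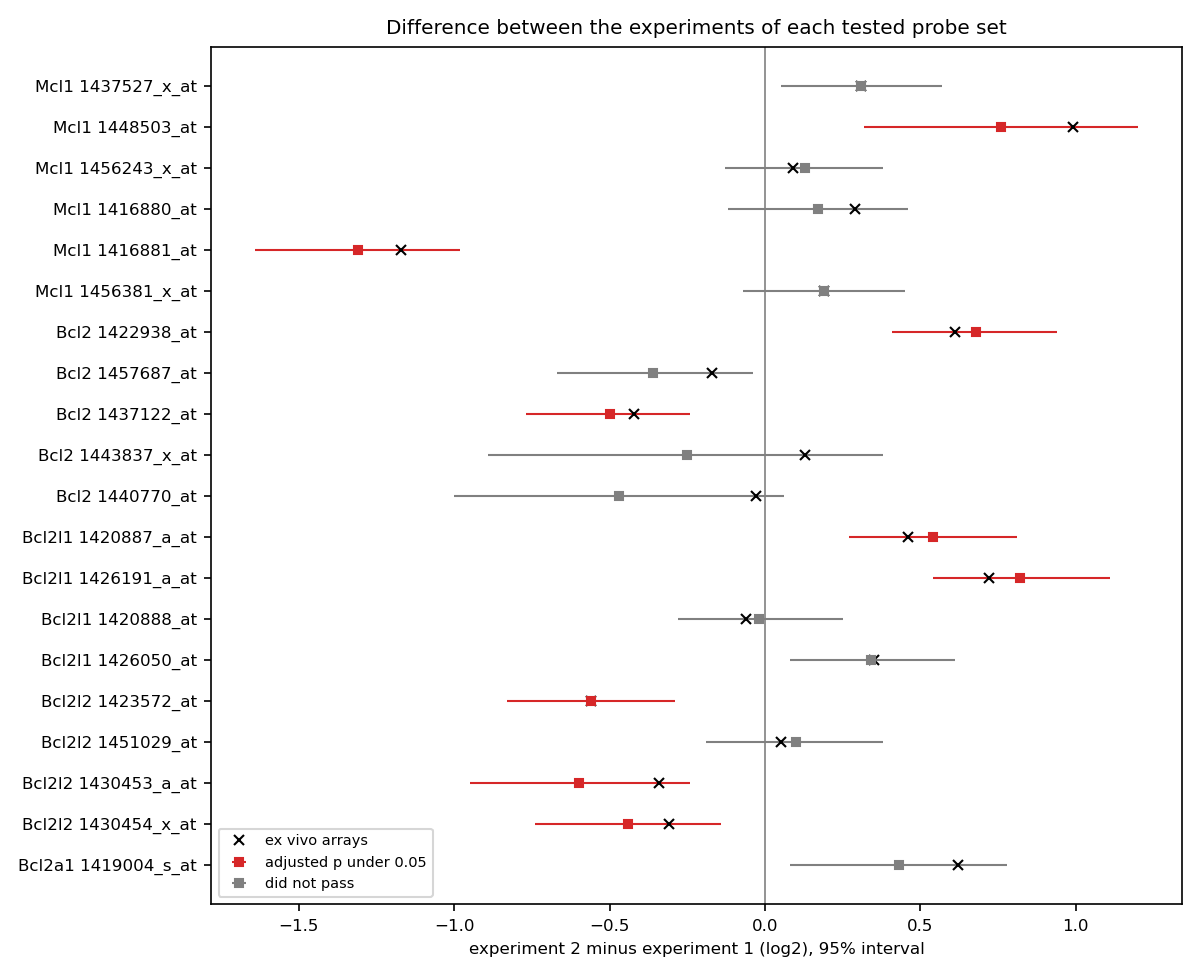
Experiment 2 minus experiment 1 on the log2 scale (x axis) of the 20 tested probe sets (rows). Squares with bars are limma's estimates with culture as a covariate and their 95% confidence intervals, red where the adjusted p was under 0.05, and crosses are the ex vivo arrays alone. Mcl1 and Bcl2 have red squares on both sides of 0, at -1.31 and 0.76 and at 0.68 and -0.50, whereas those of Bcl2l1 lie above 0 and those of Bcl2l2 below it.

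The control probe sets for transcript ends moved with the experiments. For Actb, the 3′ probe set minus the 5′ probe set on the log2 scale was 0.77 in experiment 1 and -0.11 and -0.01 in experiment 2 in cultured PCs, against 0.31 and -0.12 in ex vivo PCs. For Gapdh it was 0.63, 0.30 and 0.28 in cultured PCs, against 0.74 and 0.34 in ex vivo PCs. Both were higher in the experiment 1 arrays, and their part in the disagreement of the Mcl1 and Bcl2 probe sets was not tested.

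Labels and cell content were checked by markers. The 7 PC markers, among them Sdc1 (which encodes CD138), Prdm1, Irf4 and Xbp1, were all detected, with a summed intensity of 50014 to 52154 in cultured PCs, against 52819 and 54580 in ex vivo PCs. None was called for culture, and the largest differences in size were those of Tnfrsf17, which encodes BCMA (-0.37), and Sdc1 (-0.18). The 14 markers of stromal cells summed to 6381 in experiment 1 and 15831 and 16215 in experiment 2 in cultured PCs, against 1227 and 912 in ex vivo PCs. Of these, 2 were called higher with culture alone (Cav1 by 3.03 and Pcolce by 2.56), and 10 higher and 1 lower with the block. In both ex vivo arrays Cav1, Col6a1, Col3a1 and Cxcl12 lay under an intensity of 50. All other stromal markers reached it in at least 1 ex vivo array. Among these were Bgn (log2 levels of 8.04 and 5.75 in ex vivo PCs), Col1a1 (6.78 and 6.45) and Vcam1 (6.87 and 7.62). Of 7 macrophage markers 1 was called lower, C1qa, and 4 lower and 1 higher with the block. Vcam1 is on both lists and is the stromal marker counted as lower. The B cell list had 2 of 7 tested genes lower with the block (Cd72 and Dntt), and the T and NK cell list 1 of 2 (Gzma). Of 3 tested neutrophil genes none was called. S100a9 and Ltf were lower in every pair, as were 4032 of all 13578 tested genes. Camp differed by -0.02 and was higher in cultured PCs in both pairs of experiment 2. The neutrophil sum was 344, 358 and 370 in cultured PCs, against 620 and 424 in ex vivo PCs, and the T and NK cell sum was 183, 207 and 209 in cultured PCs, against 246 and 302 in ex vivo PCs. The B cell sum was 5863, 6453 and 5892 in cultured PCs, against 5470 and 6323 in ex vivo PCs. It came mostly from Cd79b and Ms4a1, and of the 7 tested genes 5 were lower and 1 higher in every pair. The macrophage sum was 1791, 1747 and 1440 in cultured PCs, against 1859 and 1528 in ex vivo PCs. Cd68 was its largest part in each array. The log2 level of Cd68 was 10.53, 10.39 and 10.05 in cultured PCs, against 9.65 and 9.31 in ex vivo PCs. Of the 7 tested macrophage genes 5 were lower and 1, Cd68, higher in every pair. Over all 13578 tested genes, 4032 were lower and 2569 higher in every pair. The Bcl2a1 probe set 1419004_s_at was lower in every pair too, as were 24.9% of all tested probe sets. How much of any member's level came from these other cells was not tested. The Bcl2 probe sets 1443837_x_at and 1440770_at were highest in the cultured array of experiment 1, which had the lowest stromal sum of the cultured arrays. In experiment 2 both were higher in array b than in array a, whose stromal sums were 16215 and 15831. With 1 cultured array in experiment 1, stromal content and experiment cannot be told apart, and a relation to stromal content was not tested.

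**Figure D4:**
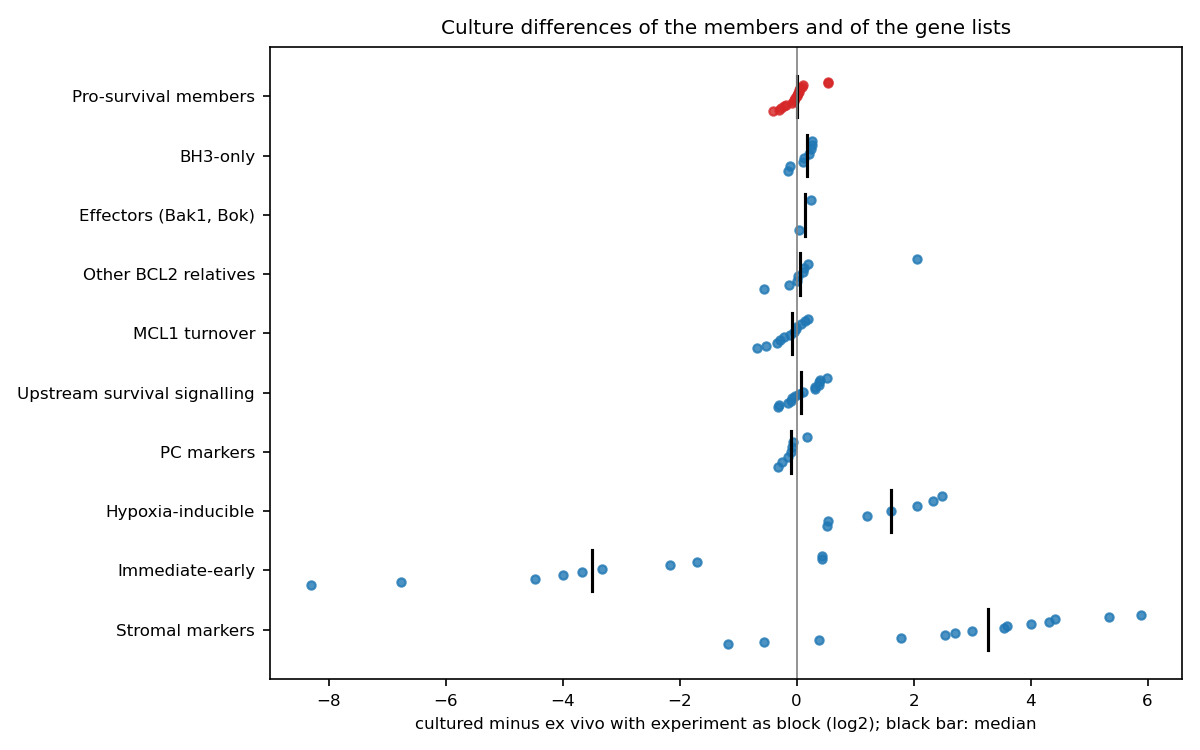
Cultured minus ex vivo difference on the log2 scale with the experiment as a block (x axis) of the 19 single-gene pro-survival probe sets in red and of 9 gene lists in blue (1 brightest probe set per gene), with a black bar at each median. The red points lie between -0.40 and 0.54. The list medians are 1.62 for hypoxia-inducible genes, -3.50 for immediate-early genes and 3.27 for stromal markers. Those of the other lists shown lie near 0 as well, between -0.09 for PC markers and 0.18 for BH3-only genes.

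Among all 13578 tested genes, at the brightest probe set of each, 2 were called higher and 6 lower with culture alone, and 153 higher and 83 lower with the block. Counts of 0 in the short lists below are close to that background. Of 8 BH3-only genes, whose products bind the pro-survival proteins, none was called in either model, and their median difference was 0.14, against -0.06 over all 13578 tested genes. The largest were Pmaip1, which encodes the MCL1 antagonist NOXA (0.29, standard error 0.13, adjusted p = 0.814), and Bid, whose product links death receptors to mitochondria (0.26, standard error 0.12, adjusted p = 0.83). Both were higher in cultured PCs in every pair, whereas Bad and Hrk were lower in every pair. Over all 13578 tested genes, 2569 were higher and 4032 lower in every pair. Of the effectors, Bak1 and Bok were measured, with differences of 0.00 and 0.26 and no call. Bax had no probe set of its own in the annotation used here.

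Of 8 less characterised relatives, Bnip3, a mitophagy receptor, had the largest difference. Its level was 9.68, 9.91 and 10.08 in cultured PCs, against 7.83 and 7.78 in ex vivo PCs, a difference of 2.08 (standard error 0.16, adjusted p = 0.0593) that was called only with the block (2.06, standard error 0.14, adjusted p = 0.00551). Bnip1 differed by -0.61 (adjusted p = 0.693). Of Bag1 and Bag3, co-chaperones that bind BCL2 and heat shock proteins, neither was called for culture (-0.29 and -0.01), and Bcl2l10 was under the filter.

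MCL1 protein depends on its removal as well as its synthesis. The 12 genes listed for its turnover, among them ubiquitin ligases, deubiquitinases and kinases, were therefore read as well. None was called for culture in either model, with a median of -0.11. The largest differences were those of Ube2c, a conjugating enzyme of the anaphase-promoting complex (-0.63, standard error 0.21, adjusted p = 0.685), and Gsk3a, one of the GSK-3 kinases that phosphorylate MCL1 (-0.60, standard error 1.05, adjusted p = 0.94). The level of Gsk3a was 9.47, 7.22 and 6.84 in cultured PCs, against 9.60 and 7.29 in ex vivo PCs, which is a split by experiment. Transcript levels alone do not show the amount of MCL1 protein, which was not measured here.

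Upstream of the family, 14 survival signalling genes gave no call in either model, with a median of 0.08. The largest differences were those of Pim2, a survival kinase of PCs (0.56, standard error 0.22, adjusted p = 0.758), and Il6st, the signalling chain of the IL-6 receptor (0.49, standard error 0.29, adjusted p = 0.86). Tnfrsf17, which encodes BCMA, a receptor for APRIL, is given among the markers.

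Other lists did change. Of 10 immediate-early genes, 5 fell with culture, among them Fos (-8.26), Fosb (-6.81) and Klf2 (-3.34), which had the lowest adjusted p-values, and 8 fell with the block. Atf3 (0.47) and Ier3 (0.33) were instead higher in every pair and were not called in either model. Of 7 hypoxia-inducible genes none was called with culture alone and 5 rose with the block. The largest differences with culture alone were those of Ankrd37 (2.61, adjusted p = 0.196) and Egln3 (2.37, adjusted p = 0.0523).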

How the data were processed

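RNA of the magnetically isolated PCs was hybridized to mouse Affymetrix arrays. The cultured PCs had also been sorted by flow cytometry after culture. Signals were summarized by the authors by RMA in the R package affy. GCOS is also listed in the submitters' notes, and no version of either is given in the sources used. The deposited intensities are linear (4.94 to 26947.18, with array medians of 87.05 to 94.19) and were turned into log2 values here. Arrays have no depth, so precision is limited by their number.

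The platform annotation gives 1 gene symbol to 34945 of the 45037 probe sets that are not controls, several to 932, and none that is listed here to 9160. The table also holds 64 controls, which were left out of all fits and counts; those for the ends of Actb and Gapdh transcripts are given as levels. The filter kept 30477 probe sets that reached an intensity of 50 on 2 or more arrays. These were fitted by limma 3.58.1 under R 4.3.3 (lmFit, eBayes, Benjamini-Hochberg). The study's methods name limma and no covariate, so the main model held culture alone. The experiment entered as a block, as an effect with culture as covariate, and in an interaction. Groups and experiments come from the sample titles.

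The experiment number pairs the arrays, since the titles share it between groups. Across the filtered probe sets, each cultured array's deviation from its group mean correlated with that of the ex vivo array of its own experiment, with r of 0.749 for experiment 1 and of 0.558 and 0.719 for arrays a and b. Since both ex vivo arrays deviate by mirrored amounts, these values are not independent.

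Members and lists were chosen with earlier results of these data known. Named were all member probe sets and, per list, up to 3 called genes or the 2 largest differences at the brightest tested probe set. Genes of like pattern were to be sought for members whose brightest probe set spanned at least 1 log2 unit. A few list genes outside that rule (Gzma, Col6a1 and others named as examples) were picked with their values known. Simulated data (30477 probe sets, 200 of them changed) served to test the model fits. Motifs were sought in the RefSeq promoter windows of GRCm38.p6.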

Additional observations from a re-analysis of the deposited data

How the results depend on the processing

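No member was called for culture under any alternative run (0 in all). With the experiment as replicate block, the count over all probe sets was 550 in place of 14. It was 5 without the filter, 31 at an intensity of at least 100, 0 with arrays a and b averaged, and 0 to 257 when an array was left out (257 without the cultured array of experiment 1). Paired by the replicate block, Mcl1 differed by -0.05 and Bcl2l2 by 0.06, in place of 0.00 and -0.03, and no call of a member changed. Signs near 0 also turned for Mcl1 with median centring (-0.05), averaged arrays (-0.05) and the mean of its probe sets (-0.10), for Bcl2 with the mean of its probe sets (0.07), and for Bcl2l2 with averaged arrays (0.07). Leaving out an array gave -0.15 to 0.16 for Mcl1, -0.41 to 0.20 for Bcl2, -0.10 to 0.36 for Bcl2l1 and -0.31 to 0.25 for Bcl2l2. Of 52 such alternatives, 16 turned the sign, with adjusted p-values from 0.362 to 1.0. Between the experiments, 8170 probe sets were called, and 0 to 6916 when an array was left out. Of the members 9 were called, 5 with arrays a and b averaged (where 5929 of all probe sets were called), and 0 to 8 when an array was left out. The mean over the Bcl2 probe sets gave -0.18 in place of 0.68 between the experiments. Mcl1 passed there with quantile normalization (0.40, adjusted p = 0.0448) and with trend and robust moderation (0.31, adjusted p = 0.0386), and Bcl2l1 missed with averaged arrays (0.53, adjusted p = 0.0508). Causes of these shifts were not tested, and the number of arrays cannot be told apart from which array was left out. With signal near background, 1426050_at is the least reliable member.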

Other observations

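Some relatives that did not pass for culture differed between the experiments, as several members did. Bbc3, which encodes the BH3-only protein PUMA, gave 9.26 in experiment 1 and 8.02 and 8.21 in experiment 2 in cultured PCs, against 9.04 and 8.08 in ex vivo PCs, a difference of -1.06 for experiment 2 minus experiment 1 (limma, adjusted p = 0.00516). Of 8 BH3-only genes 1 was called between the experiments, against 1494 higher and 1919 lower in experiment 2 of all 13578 tested genes. Bag3 and Bag1 were lower in experiment 2 too, with differences of -0.98 and -0.73 (limma, adjusted p = 0.0147 and 0.0157). Of the 12 genes of MCL1 turnover, 3 were higher and 2 lower in experiment 2, to be read against the same counts over all genes. These genes were chosen after their values were seen.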
